A study of Homo sapiens with 6 samples.

Results

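Guanylate-binding proteins are large GTPases of the interferon response, and the data on 5 of their genes, GBP1, GBP2, GBP3, GBP4 and GBP5, are described here. They were picked by gene symbol from the 60708 genes of a count table, and they were chosen on their VHL-KO against VC counts, so their own difference is given as a description without a test. Transcripts of 6 Caki-1 samples were sequenced, Caki-1 being an established clear cell renal carcinoma line with a wild-type VHL gene. The 3 VC samples are Caki-1 cells of wild-type genotype that were infected with the lentiviral CRISPR vector alone, and the 3 VHL-KO samples are cells in which VHL was targeted through the same type of vector with a guide RNA. The knockout line was made clonal and selected with puromycin, so traits of a clone and effects of the knockout cannot be told apart. No other treatment is named for either group.

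Human guanylate-binding proteins bind and hydrolyse GTP and assemble on membranes, where they act in defence of the cell against bacteria, viruses and parasites. Their genes sit side by side and are classical targets of interferon gamma, and several of them also respond to type I interferon. GBP1, GBP2 and GBP5 carry a C-terminal CaaX box, a signal for a lipid anchor that holds the protein on membranes.

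VC replicates 1 to 3 held 31789923, 28463579 and 34881739 counts, and VHL-KO replicates 1 to 3 held 29139722, 22805385 and 22628246. VHL, the edited gene (ENSG00000134086), had 1454, 1124 and 1522 reads in VC replicates 1 to 3 and 929, 657 and 650 reads in the VHL-KO replicates. With TMM factors for library size, the VC samples averaged 40.2 ± 2.38 CPM (counts scaled to a common library size; SD, n = 3) and the knockout samples 31.9 ± 2.49 CPM (SD, n = 3), and 3 of 3 knockout samples lay below every VC sample. The log2 fold change was -0.33 ± 0.11 (SE), lower in 3 of 3 samples, and the quasi-likelihood test of edgeR gave an adjusted p of 0.0109, adjusted by Benjamini-Hochberg over 17401 genes. The call was lost with upper quartile factors, at -0.22, and with offsets for GC content and length, at -0.13. It was also lost without VC replicate 1, at -0.28, and without VHL-KO replicate 2, at -0.30. These reads are summed over the whole gene and do not read the edited site, and 23.5% of the exonic bases of VHL overlap a gene on the other strand.

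Markers of kidney epithelium were detected. PAX8, a transcription factor of the kidney lineage, was at 428 ± 38.9 CPM in VC and 614 ± 14.2 in VHL-KO cells, whereas PAX2 had no read in any sample. Of 9 tested renal epithelial markers, 5 were called higher and 2 lower, beside 28.5% and 31.2% of all tested genes. Their median log2 fold change was 0.37 against -0.01 for all tested genes. That median was 0.18 with library size alone, where 3 were called in each direction. Cadherin 16, a kidney-specific cadherin gene (CDH16), rose from 6.76 ± 0.988 to 72.2 ± 1.78 CPM. LHX1 fell by 1.67 on the log2 scale, and the keratin gene KRT8 rose by 0.51. The others called were KRT18 at 0.37, KRT19 at 0.96 and EPCAM at -1.42, named after their values were seen. KRT19 was not called under most alternatives, among them DESeq2 at 0.99, the offsets at 0.47 and every omission of a single replicate but that of VHL-KO replicate 2, and KRT18 was not called with library size alone at 0.18. EPCAM had too few reads to be fitted when each sample had to reach 10 reads, so that 1 was called lower there. The whole list summed to 8087, 8996 and 7933 CPM in VC replicates 1 to 3 and to 8924, 8358 and 8724 in the VHL-KO replicates, most of it from VIM.

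GBP2 (ENSG00000162645, chromosome 1, 89106132 to 89150456 on the minus strand of GRCh38) encodes a GTPase that is recruited to pathogen vacuoles and is known as an early interferon gamma target. It had 397, 304 and 349 reads in VC replicates 1 to 3 and 1576, 1344 and 1128 in VHL-KO replicates 1 to 3. This corresponds to 11.6, 10.2 and 9.19 CPM in VC and 59, 62.3 and 52.9 CPM in VHL-KO cells. Every VHL-KO sample lay above every VC sample, and the spread within a group was small beside the distance between the groups. The group means were 10.4 ± 1.22 and 58.1 ± 4.76 CPM, and the log2 fold change was 2.49 ± 0.12 (SE), or 5.61-fold.

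GBP1 (ENSG00000117228, chromosome 1, 89051882 to 89065360, minus strand), which encodes the family member that coats cytosolic bacteria, had 138, 110 and 215 reads in VC and 50, 37 and 31 in VHL-KO replicates 1 to 3. The samples stood at 4.04, 3.7 and 5.66 CPM in VC and at 1.87, 1.71 and 1.45 CPM in VHL-KO cells. All VHL-KO values were below the lowest VC value, which is the opposite side from GBP2. The means were 4.47 ± 1.05 and 1.68 ± 0.211 CPM, with a log2 fold change of -1.41 ± 0.23.

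GBP3 (ENSG00000117226, chromosome 1, 89006679 to 89022894, minus strand) had 293, 202 and 361 reads in VC and 96, 97 and 77 in VHL-KO replicates 1 to 3. In CPM these were 8.58, 6.8 and 9.51 in VC and 3.59, 4.5 and 3.61 in VHL-KO cells. The groups did not overlap here either, and the knockout samples were again the lower ones. Means were 8.3 ± 1.38 and 3.9 ± 0.516 CPM, a log2 fold change of -1.09 ± 0.18.

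GBP4 (ENSG00000162654, chromosome 1, 89181144 to 89198942, minus strand) had 76, 62 and 61 reads in VC and 63, 35 and 37 in VHL-KO replicates 1 to 3. Its samples were at 2.23, 2.09 and 1.61 CPM in VC and at 2.36, 1.62 and 1.74 CPM in VHL-KO cells, so that the groups overlapped. The log2 fold change was -0.04 ± 0.26, with -0.23 for library size alone and 0.07 for upper quartile factors, scalings that shift all genes alike, and relative to the median of all genes it was -0.03 under each of them. With the offsets for GC content and length it was 0.41, or 0.38 relative to that median. The sign also turned without single replicates, to 0.06 with VC replicate 1 left out and to 0.07 with VHL-KO replicate 2 left out, among others.

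GBP5 (ENSG00000154451, chromosome 1, 89256189 to 89272860, minus strand), known for a role in inflammasome assembly and in restricting virus infectivity, had no read in VC and 0, 5 and 1 reads in VHL-KO replicates 1 to 3. It did not reach the minimum of 10 reads in any sample. Fitted with a minimum of 1 read it had a log2 fold change of 4.41 ± 2.05 (SE), a value that depends on the prior count because every VC sample was at 0, and that is therefore no bound. A count of 0 allows up to 3 counts, which was 0.0879, 0.101 and 0.079 CPM in VC replicates 1 to 3, beside a VHL-KO mean of 0.0929 ± 0.123 CPM. Such limits, and the intervals of shares and ratios, cover counting error only. GBP5 was thus close to that limit, and its reads lay mainly in 1 of the 3 VHL-KO samples. The other genes of the cluster were close to silent as well, since GBP7 had no read, GBP6 had 2 reads in 1 VC sample and the pseudogene GBP1P1 had 1 read in VC and 3 in VHL-KO cells, and 0 of these 3 genes was tested.

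**Figure D1:**
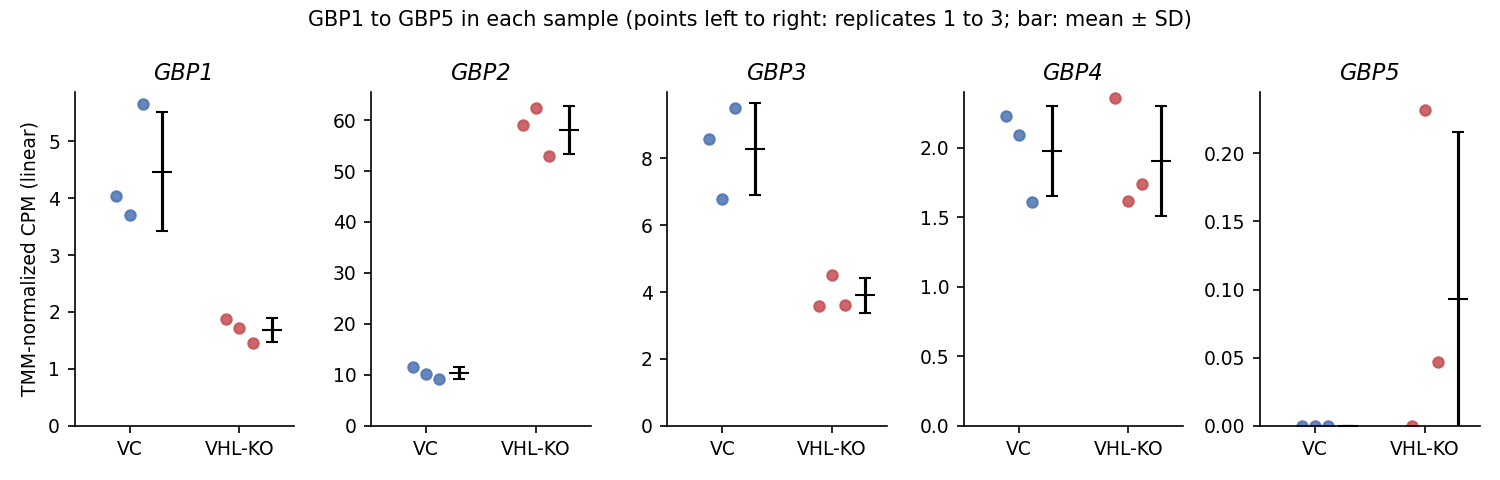
TMM-normalized CPM (linear axis, separate scale for each gene) of GBP1 to GBP5 in the 3 VC (blue) and 3 VHL-KO (red) samples, with the mean ± SD of each group in black. GBP2 is higher in all VHL-KO samples (52.9 to 62.3 CPM), and GBP1 and GBP3 are lower in them. GBP4 overlaps between the groups, and the sign of its difference changes with the offsets and without some single replicates. GBP5 is at or near 0, where the part of its SD bar below 0 is not drawn.

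VC and VHL-KO samples were thus separate for 3 of the 5 members, GBP1, GBP2 and GBP3. Of all tested genes, 64.7% had groups that did not overlap, and GBP5 was not among the tested genes. At an adjusted p under 0.05 the comparison called 59.7% of tested genes, 28.5% as higher and 31.2% as lower. Nothing is read from the members' count beside these shares, because the same contrast chose them. In bulk RNA, fewer cells with a transcript and less of it per cell cannot be told apart.

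Added together, GBP1 to GBP5 took 904, 678 and 986 reads in VC replicates 1 to 3 and 1785, 1518 and 1274 reads in VHL-KO replicates 1 to 3. The summed level was 25.1 ± 1.98 CPM in VC and 65.6 ± 5.4 CPM in VHL-KO cells, 2.62-fold higher. With TMM factors, the sum without GBP2 went the other way, from 14.7 ± 2.1 to 7.58 ± 0.644 CPM. GBP2 accounted for 43.9%, 44.8% and 35.4% of the family's reads in VC replicates 1 to 3 and for 88.3%, 88.5% and 88.5% in VHL-KO replicates 1 to 3. The exact binomial 95% intervals of these shares ran from 32.4% to 48.7% over the VC samples and from 86.7% to 90.2% over the VHL-KO samples. GBP3 went from a mean of 32.9% to 5.94% of the family's reads, GBP1 from 17.8% to 2.56% and GBP4 from 7.91% to 2.91%. The share of GBP4 fell while its own level overlapped between the groups, at 1.97 ± 0.325 CPM in VC and 1.91 ± 0.396 in VHL-KO cells.

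**Figure D2:**
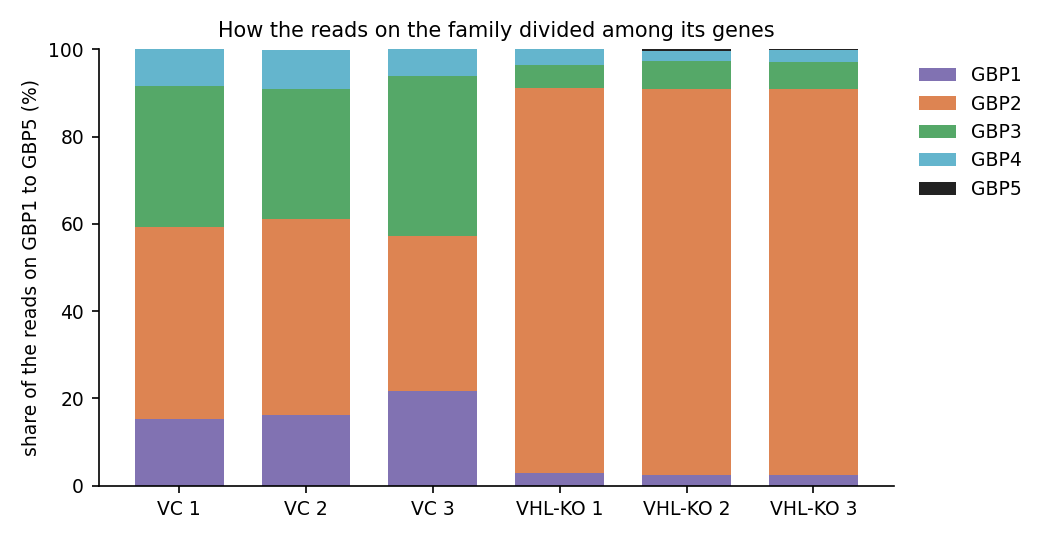
Share of the reads on GBP1 to GBP5 (percent, stacked to 100) that each gene took in each of the 6 samples. GBP2 takes 35.4% to 44.8% in the VC samples and 88.3% to 88.5% in the VHL-KO samples.

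Levels can be ordered between genes only per length of transcript. Per kilobase of all annotated exons, VC cells had 1.94 ± 0.322 CPM of GBP3, 1.43 ± 0.169 of GBP2, 0.732 ± 0.172 of GBP1 and 0.321 ± 0.0529 of GBP4. With the longest annotated transcript as the length, GBP2 had the higher mean at 2.53 ± 0.299, beside 2.26 ± 0.375 CPM per kilobase for GBP3. These means lay within their spread of each other, and in VC replicate 3 GBP3 was above GBP2, at 2.59 and 2.25. The order of these neighbours in VC thus depends on the length used. In VHL-KO cells GBP2 led on both lengths, at 8.04 ± 0.659 CPM per kilobase of all exons, ahead of GBP3 at 0.91 ± 0.12. GBP4 at 0.31 ± 0.0646 and GBP1 at 0.275 ± 0.0346 lay within their spread of each other on this length, and with the longest transcript the order was the other one, GBP1 at 0.412 ± 0.0517 and GBP4 at 0.31 ± 0.0646 CPM per kilobase.

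Reads that map to 1 place only were kept by the authors, so stretches that recur elsewhere in the genome can lose reads. Of the 50-base windows in the exons of each gene, 15.5% of those of GBP1 occur more than once in the genome, against 8.32% for GBP4, 5.15% for GBP3, 1.82% for GBP5 and 0.994% for GBP2. Most of the recurring windows were found again at places outside the genes GBP1 to GBP7, except those of GBP3, for which 4.14% of all windows are shared with GBP1. Of the exonic bases of GBP2, 8.6% overlap another gene on the same strand. The values of single members, GBP1 above all, carry that uncertainty. Many other genes named here also overlap another gene in part of their exonic bases, for example CA9 at 35.7%, IFNAR2 at 27.7%, VIM at 24.6%, IFI6 at 23.1%, IRF1 at 22.9%, PAX8 at 22.4%, TAP2 at 19.5% and RCE1 at 19%, and their counts may hold reads of the other gene or lack reads for that reason.

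The starts of GBP1 and GBP3, both lower in VHL-KO cells, can be set beside that of GBP4, whose groups overlapped. Promoter sequences from RefSeq (GRCh38.p14, 250 bases before to 50 after the start) were matched for 3 of the 5 members, GBP1, GBP3 and GBP4, and none was matched for GBP2 and GBP5. They are written 5′ to 3′ on the strand of the gene, and capitals mark matches to the interferon-stimulated response element core (GAAA, any 2 bases, GAAA) or to the gamma-activated site TTCNNNGAA, searched on both strands. The GBP1 window is chr1:89065159-89065458, that of GBP3 chr1:89022817-89023116 and that of GBP4 chr1:89198893-89199192, all on the minus strand.
GBP1: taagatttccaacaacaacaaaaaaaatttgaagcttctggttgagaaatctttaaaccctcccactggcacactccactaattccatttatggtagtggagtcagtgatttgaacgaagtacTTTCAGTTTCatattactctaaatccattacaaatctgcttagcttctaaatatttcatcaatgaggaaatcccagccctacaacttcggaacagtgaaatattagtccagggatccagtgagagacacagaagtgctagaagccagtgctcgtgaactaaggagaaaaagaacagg
GBP3: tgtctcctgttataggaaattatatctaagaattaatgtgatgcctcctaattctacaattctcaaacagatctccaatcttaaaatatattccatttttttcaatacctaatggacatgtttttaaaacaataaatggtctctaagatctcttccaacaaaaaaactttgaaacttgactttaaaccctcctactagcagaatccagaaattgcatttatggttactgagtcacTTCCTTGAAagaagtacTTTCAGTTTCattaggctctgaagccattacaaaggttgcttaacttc
GBP4: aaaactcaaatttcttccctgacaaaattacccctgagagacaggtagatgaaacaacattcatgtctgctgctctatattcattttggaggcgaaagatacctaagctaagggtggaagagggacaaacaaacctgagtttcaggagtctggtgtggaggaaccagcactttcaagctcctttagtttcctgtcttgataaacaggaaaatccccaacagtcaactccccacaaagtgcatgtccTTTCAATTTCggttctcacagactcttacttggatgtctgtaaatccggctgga

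All 3 windows held the response element core, in each case on the strand opposite to the gene. Relative to the RefSeq start, the match ran from -127 to -118 in GBP1, from 3 to 12 in GBP3 and from -4 to 6 in GBP4. The GENCODE annotation, from which the gene coordinates and distances here are taken, starts GBP1 152 bases and GBP3 28 bases further upstream, and GBP4 at the same base. Counted from those starts the match lay inside the gene in GBP1, from 26 to 35, and in GBP3, from 31 to 40, so its place relative to the start depends on the annotation. Among 35116 promoters of 300 bases, 3.57% held this core. The gamma-activated site was matched in GBP3 alone, from -15 to -7 of the RefSeq start, and in 7.66% of all promoters, and it did not overlap the other match. The hypoxia response cores ACGTG and GCGTG were in none of the 3 windows and in 21.4% and 36.5% of all promoters. With the shorter core GAAANNGA, held by 20.3% of promoters, the count of member windows was 3 as before. The core was thus shared by windows of genes that were lower and of a gene whose groups overlapped. A match is a description of the letters in these windows.

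The position of the family was not used to choose it. The GBP genes span 381 kb of chromosome 1, and 11 other genes within 1 Mb of that span passed the minimum of 10 reads. Of these, 8 were called lower and 0 higher in VHL-KO cells by edgeR (adjusted p under 0.05), beside 31.2% and 28.5% of all tested genes. The 11 had a median log2 fold change of -0.74 against -0.01 for all tested genes. The 8 called were the 8 protein-coding neighbours, and the remaining 3 were pseudogenes and a noncoding RNA. PKN2, a protein kinase gene, fell from 9.12 ± 2.67 to 2.88 ± 0.202 CPM, or -1.67 ± 0.21 on the log2 scale, lower in 3 of 3 knockout samples (Benjamini-Hochberg adjusted p of 1.9e-07, edgeR's quasi-likelihood test). On the same side lay RBMXL1 at -1.53, KYAT3 at -0.53 and GTF2B, a general transcription factor gene, at -0.38. KYAT3 and RBMXL1 share 359 exonic bases on the same strand.

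On the far side of the cluster lay 3 genes for subunits of the volume-regulated anion channel, LRRC8C at -1.54, LRRC8B at -1.37 and LRRC8D at -0.74, and beyond them the zinc-finger gene ZNF326 at -0.64. Relative to the start of GBP2, GBP1 starts at -85.1 kb and GBP4 at 48.5 kb. With the offsets for GC content and length, 5 neighbours were called instead of 8, and the log2 fold change of GTF2B turned to 0.06, that of ZNF326 was -0.04 and that of KYAT3 -0.21. GTF2B was also no longer called with upper quartile factors, at -0.26, or when single replicates of either group were left out, namely VC replicate 1 at -0.40, VC replicate 3 at -0.23 and VHL-KO replicates 1 and 2 at -0.34. KYAT3, whose samples overlapped between the groups, was not called without VHL-KO replicate 1, at -0.39.

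**Figure D3:**
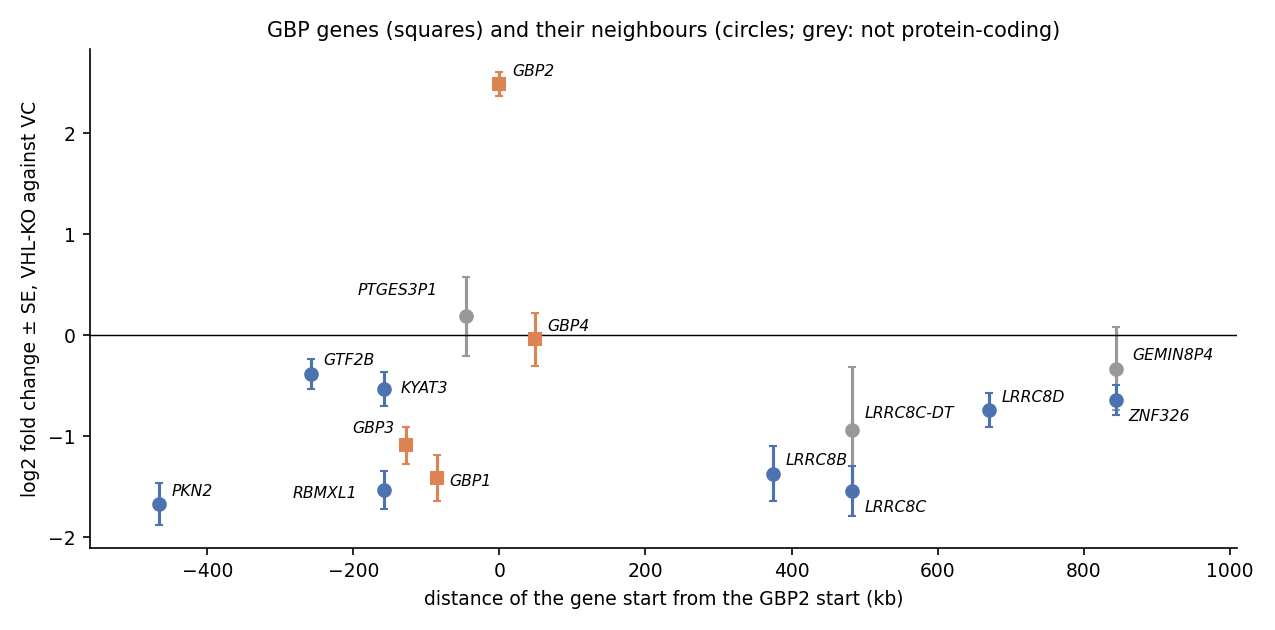
Log2 fold change ± SE of the GBP genes (squares) and of the neighbours that passed the minimum of reads (circles, grey where not protein-coding), by the distance of each gene's start from that of GBP2 in kb. GBP2 at 2.49 stands above 8 protein-coding neighbours between -1.67 and -0.38. GTF2B crosses 0 under the GC and length offsets, and GBP4 changes sign with these offsets and without some single replicates.

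Base composition moved with the comparison as a whole. The exons of GBP1, GBP2, GBP3 and GBP4 had 40.3%, 40.5%, 40.9% and 41.7% GC, and the 3959 tested genes with 40% to 45% GC had a median log2 fold change of -0.30. That median was -0.48 for the 2461 genes with 35% to 40% GC and 0.51 for the 1634 genes with 60% to 65%. The exons of the protein-coding neighbours had from 35.8% GC in ZNF326 to 45.1% in LRRC8D. With offsets that remove each library's trend with GC content and length, the log2 fold changes were 2.97 for GBP2, -0.88 for GBP1, -0.56 for GBP3 and 0.41 for GBP4. These offsets also remove any difference between the groups that follows GC content, and the part of base composition in the members' values was not tested. Relative to the median of all genes, which moved from -0.01 to -0.20 with library size alone and to 0.10 with upper quartile factors, GBP2 was at 2.50 and GBP4 at -0.03 under each of these scalings. Of all calls, 47.7% were higher with TMM factors, 35.8% with library size alone, 50.4% with the offsets and 55% with upper quartile factors.

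**Figure D4:**
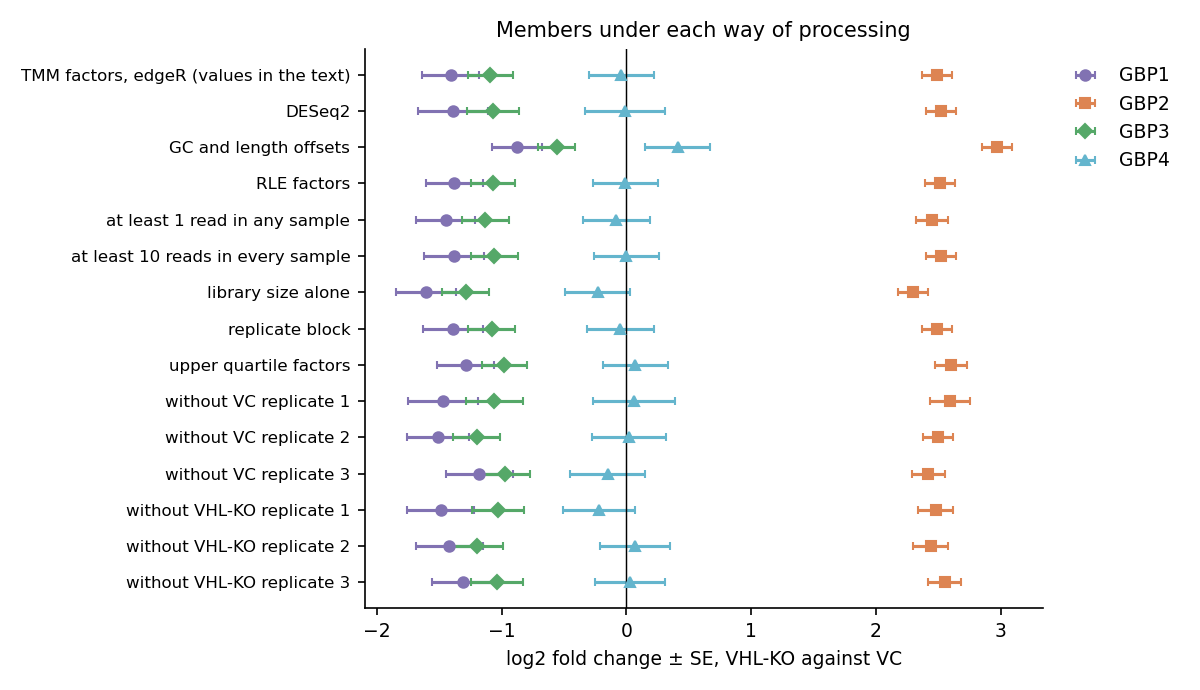
Log2 fold change ± SE of GBP1 to GBP4 under each way of processing. The SE is DESeq2's own in its row and derived from edgeR's test statistic in the others. GBP2 lies between 2.30 and 2.97, GBP1 between -1.61 and -0.88 and GBP3 between -1.29 and -0.56, whereas GBP4 lies between -0.23 and 0.41 and changes sign.

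The signalling genes upstream of the family were mixed. Beside this list and those that follow, 28.5% of all tested genes were called higher and 31.2% lower, with a median log2 fold change of -0.01. Differences between the lists and these shares were not tested. Of 21 tested genes for interferons, their receptors and their signal transducers, 8 were called higher and 4 lower, with a median log2 fold change of 0.14 that was -0.05 with library size alone but 0.25 with upper quartile factors. IFNG and IFNB1 had no read in any sample. The receptor gene IFNGR1 rose from 11.6 ± 1.96 to 17.5 ± 0.34 CPM, whereas IFNGR2 was at 47.5 ± 1.55 and 50.8 ± 2.72 CPM and was not called. IFNAR2, for a chain of the type I interferon receptor, rose by 0.97 on the log2 scale.

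STAT2 rose from 57.4 ± 1.41 to 82.7 ± 6.71 CPM. IRF7 rose from 10.6 ± 1.47 to 29.8 ± 1.37 CPM, but IRF1, the activator of many interferon gamma targets, fell from 44.2 ± 4.92 to 33.5 ± 2.26 CPM. IRF2 was called lower at -0.32, a call that was lost with the offsets at -0.15 and with upper quartile factors at -0.20, among other alternatives. JAK2 at -0.39 was not called, but it was with library size alone at -0.59 and without VC replicate 2 at -0.55, and it turned to 0.19 with the offsets. SOCS1, the feedback inhibitor, rose from 2.28 ± 0.507 to 4.89 ± 0.631 CPM, a call lost with the offsets at 0.40, and NFKB1 fell by 0.70 on the log2 scale. The fourth gene called lower was JAK1 at -0.55, named after its value was seen.

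Among 24 tested genes inducible by interferon gamma, 6 were called higher and 6 lower (median log2 fold change 0.05, but 0.16 with upper quartile factors and -0.15 with library size alone). With upper quartile factors 10 were called higher, and with library size alone 5 were called higher and 9 lower. NLRC5, an activator of MHC class I genes, rose from 38.2 ± 4.66 to 75.6 ± 9.15 CPM. WARS1 fell by 0.72, LAP3 by 0.82 and TAP2 by 0.99 on the log2 scale. The others called higher were SOCS1, IFI16 at 0.82, TAPBP at 0.80, PSMB8 at 0.45 and UBE2L6 at 0.39. IRF1, CD274 at -1.97 and APOL6 at -0.38 were the others called lower. IFI16, TAPBP, PSMB8, UBE2L6, CD274 and APOL6 were named after their values were seen. CXCL10 had 2 reads in 1 VC sample and none elsewhere.

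Of 25 tested type I interferon-stimulated genes, 5 were called higher and 7 lower, with a median of -0.04 that ranged over the alternatives from -0.24 with library size alone to 0.10 without VC replicate 3. With the offsets 7 were called higher and 4 lower, so that the larger count changed sides, and with library size alone 4 were called higher and 10 lower. The RNA-sensor regulator DHX58 rose by 1.18, while OAS3 fell by 1.47, IFI44L fell by 1.39 and EIF2AK2 fell by 0.92 on the log2 scale. The other genes called higher were IFI6 at 0.91, OASL at 0.81, OAS1 at 0.76 and IFI35 at 0.33, named after their values were seen. Also named in this way, the others called lower were IFIT1 at -0.83, IFIH1 at -0.68, IFIT5 at -0.63 and HERC5 at -0.48. The call of IFI6 was lost with the offsets at 0.31, and IFI35 turned to -0.09 with the offsets and was not called with library size alone at 0.14, without VC replicate 1 at 0.27 or without VHL-KO replicate 1 at 0.30. MX1, a dynamin-like antiviral GTPase, was at 1.91 ± 0.434 and 1.92 ± 0.377 CPM and was not called.

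Of 16 tested relatives among the large GTPases, 8 were called lower and 3 higher, beside 31.2% and 28.5% of all tested genes. The difference between these counts was not tested. The median log2 fold change was -0.17, but 0.02 with the offsets and -0.37 with library size alone. DNM1L, which drives mitochondrial fission, fell from 55.9 ± 9.35 to 21.5 ± 1.54 CPM, and OPA1, which acts in fusion of the inner mitochondrial membrane, fell from 49.5 ± 9.82 to 22.2 ± 1.33 CPM. The atlastin gene ATL2 fell by 1.07 and EHD4 by 1.32 on the log2 scale, and 45.7% of the exonic bases of EHD4 overlap a gene on the other strand. Those called higher were EHD3 at 0.77, EHD2 at 0.68 and DNM2 at 0.43, named after their values were seen. With the offsets or with upper quartile factors, 5 were called higher and 7 lower.

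Of 8 genes for protein prenylation and the processing of CaaX proteins, 2 were called higher and 3 lower (median -0.09, ranging over the alternatives from -0.29 with library size alone to 0.07 without VC replicate 3). With library size alone 0 were called higher and 3 lower. FNTA, the subunit shared by farnesyl and geranylgeranyl transferase, was at 29.7 ± 6.99 and 28.6 ± 2.08 CPM and was not called. FNTB, the farnesyl-specific subunit, was called higher at 0.51, and 49.3% of its exonic bases overlap other genes. Its call was lost with library size alone at 0.32 and without VHL-KO replicate 2 at 0.42. RCE1, the other gene called higher and named after its value was seen, was at 0.34, but it turned to -0.11 with the offsets and was not called with library size alone at 0.15 or without VC replicate 1 at 0.34, VHL-KO replicate 1 at 0.31 or VHL-KO replicate 3 at 0.28. The number called higher was thus 1 without VC replicate 1 or any single VHL-KO replicate. PGGT1B, the geranylgeranyl-specific subunit, was not called at -0.12. With the offsets, FNTA turned to 0.38 and PGGT1B to 0.48 and both were called. The later enzymes ZMPSTE24 and ICMT fell by 1.16 and 0.72 on the log2 scale. RABGGTB, which encodes a subunit of the transferase for Rab proteins, fell by 0.47 and turned to 0.15 with the offsets.

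In the list of inflammasome and defence partners, 8 of 14 tested genes were called higher and 3 lower, beside 28.5% and 31.2% of all tested genes. The median log2 fold change of the list was 0.93. APOL1, an apolipoprotein L gene with lytic activity against trypanosomes, rose from 64.4 ± 3.4 to 531 ± 53.4 CPM, and APOL2 from 46.6 ± 3.89 to 165 ± 6.76 CPM. APOL3, which acts with guanylate-binding proteins on bacterial membranes, was at 4.98 ± 0.483 and 5.86 ± 0.563 CPM and was not called, except with the offsets at 0.38. CASP4, the caspase that senses lipopolysaccharide on surfaces coated by guanylate-binding proteins, rose from 16.4 ± 1.47 to 32 ± 2.53 CPM. Its substrate gene GSDMD rose from 109 ± 17 to 172 ± 1.5 CPM, and NINJ1 rose by 1.31 on the log2 scale. PYCARD, the inflammasome adaptor, rose by 2.51, although 59.7% of its exonic bases overlap a gene on the other strand. Those called lower were NLRP3 at -3.95, with 66% of its exonic bases overlapping a gene on the same strand, CASP8 at -0.82 and APOL6 at -0.38, named after their values were seen. APOL6 turned to 0.11 with the offsets and was not called with upper quartile factors at -0.27 or without VC replicate 1 at -0.35, VC replicate 3 at -0.30 or VHL-KO replicate 3 at -0.32, which left 2 called lower. NLRP3 could not be fitted when each sample had to reach 10 reads.

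HIF target genes were all called, beside 59.7% of all tested genes. Of the 12, 10 were higher and 2 lower, with a median log2 fold change of 1.60. CA9, a carbonic anhydrase gene that VHL loss is known to induce, had 0, 0 and 2 reads in VC and 288, 247 and 233 in VHL-KO replicates 1 to 3. The ratio was 562, with a counting interval from 155 to 4646 (95%, exact binomial). CA9 passed the minimum of reads through the VHL-KO samples alone. When each sample had to reach 10 reads, 9 HIF targets were called higher and 2 lower, with a median of 1.26. NDRG1 rose from 11.7 ± 0.481 to 761 ± 28.5 CPM, ADM by 3.55 and VEGFA by 2.48 on the log2 scale. The 2 called lower were EGLN3 at -1.26 and NDUFA4L2 at -0.86, named after their values were seen, and NDUFA4L2 was not called with RLE or upper quartile factors, with DESeq2, without VC replicate 1 or 2, and without replicate 2 or 3 of the knockout, where it lay between -0.89 and -0.58.

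**Figure D5:**
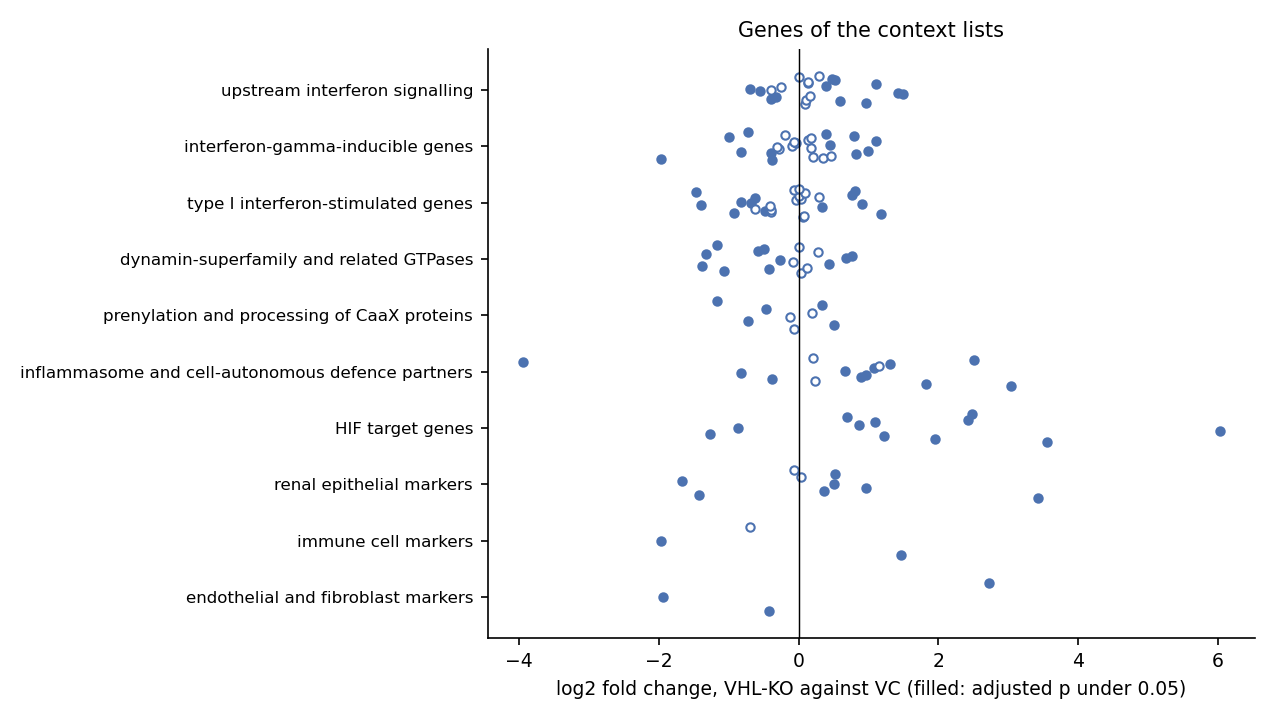
Log2 fold changes of the tested genes of each list (filled where the adjusted p from edgeR was under 0.05, open otherwise). CA9 is not drawn because its VC samples were at or under 3 counts. The HIF targets and the defence partners have medians of 1.60 and 0.93, and the interferon lists lie on both sides of 0.

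Of 12 immune cell markers, 7 were at or under 3 counts in every sample, among them PTPRC, and 3 were tested, with 1 higher, 1 lower and a median of -0.70, which was 0.44 when every gene with a read was fitted and 1.5 when each sample had to reach 10 reads, where CD14 alone could be fitted. With single replicates left out, the median of the immune cell markers ranged from -1.32 without VHL-KO replicate 1 to -0.07 without VC replicate 2. CD3E, CD3D, CD2, NKG7 and FCGR3A had no read. The list summed to 2.55, 3.33 and 2.08 CPM in VC replicates 1 to 3 and to 4.87, 6.02 and 4.22 in the VHL-KO replicates, mainly from CD14, which rose by 1.47 on the log2 scale. CSF1R, named after its value was seen, was called lower at -1.97, but not without VC replicate 2 or VHL-KO replicate 1. Of 9 endothelial and fibroblast markers, 3 were tested, with 1 higher and 2 lower (median -0.42, but -1.17 without VHL-KO replicate 1, -1.15 when each sample had to reach 10 reads, -1.07 when every gene with a read was fitted and -0.76 with the offsets). That list summed to 43.6, 47.4 and 37.4 CPM in VC and 30.5, 27.5 and 26 in VHL-KO replicates 1 to 3, mostly from COL1A1, which fell by 0.42, and LUM had no read. PDGFRB fell by 1.94 on the log2 scale, and PECAM1, named after its value was seen, was called higher at 2.73 on few reads, but no gene of the list was without VC replicate 3 or VHL-KO replicate 1, or when each sample had to reach 10 reads. The part of these genes in the members' values was not tested.

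The genes with profiles most like those of the members were found by the root-mean-square distance between log2 CPM profiles, each centred on its mean over the 6 samples. For GBP2 these were the noncoding RNA LINC02762 (0.0272), PFKFB4 (0.0611), a regulator of glycolysis that is also on the HIF target list, and LMF1 (0.083). MRPL39 (0.0255), GGCT (0.0421) and EIF2S1 (0.0509) were closest to GBP3. AASDHPPT (0.0593), COMMD10 (0.0788) and DNM1L (0.0815) were closest to GBP1, and LRTOMT (0.0887), MAP3K8 (0.0957) and ZFP36 (0.0997) to GBP4. Between members, the distance was 0.226 for GBP1 and GBP3 and 1.95 for GBP1 and GBP2. These distances rank genes in the same samples that chose the members and say nothing of shared function.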

How the data were processed

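Transcripts of 3 VC and 3 VHL-KO samples were sequenced and grouped by the labels. The authors trimmed reads with Trim Galore, aligned them with STAR to GRCh38.p13, kept reads that mapped to 1 place and counted them with HTSeq. The deposited values are raw counts per gene; strandedness, counting mode and annotation release are not given in the sources used here. Nothing says that replicates are separate cultures, so p-values measure the spread between these samples. Genes reaching 10 reads in 1 or more samples (17401) were fitted with edgeR 4.0.16 (TMM, quasi-likelihood, two-sided, Benjamini-Hochberg adjustment, threshold 0.05) in R 4.3.3. Each SE from edgeR is the absolute log2 fold change divided by the square root of the test's F statistic, whereas DESeq2 gives its own. For the members this SE serves as a description only, and no test is read from it. The fits were tested on simulated data. CPM used the reads on tested genes. Positions, lengths and GC content came from GENCODE release 44, which matched 17355 tested genes. The members and lists were chosen with earlier results of these data known. Named genes were VHL, the cluster's GBP genes, 20 context genes (1 is not reported here), protein-coding neighbours, 3 genes most like each fitted member, and the 4 largest called changes per list whose mean normalized count reached 50. Alternatives changed scaling, tool (DESeq2 1.42.0), filter, samples, replicate block, and GC and length offsets.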

Additional observations from a re-analysis of the deposited data

How the results depend on the processing

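GBP1, GBP2 and GBP3 kept their direction under every alternative tried. With the GC and length offsets GBP1 was at -0.88, GBP2 at 2.97, GBP3 at -0.56 and GBP4 at 0.41, and with library size alone GBP2 was at 2.30 and the sum of GBP1 to GBP5 at 1.19 (log2 ratio). Fitting the trend of the offsets only on genes with a mean of at least 50 reads was chosen after seeing the data, because a trend fitted on all genes left part of a GC trend in simulated counts. VHL, at -0.33, was no longer called with upper quartile factors at -0.22 or with the offsets at -0.13, where edgeR's quasi-likelihood fit gave Benjamini-Hochberg adjusted p of 0.0905 and 0.184 in a span from 2.9e-04 to 0.184 for VHL under all alternatives, and it lay between -0.39 and -0.28 with single replicates left out, not called without VC replicate 1 or VHL-KO replicate 2.

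The offsets called 5 neighbours in place of 8. Library size alone called 3 genes of the prenylation list in place of 5. Of the immune cell markers 1 was called in place of 2 with at least 10 reads in every sample, where fewer genes were tested, and 1 to 2 with single replicates left out (1 without VC replicate 2 or VHL-KO replicate 1).

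Directions turned as follows. With the offsets, APOL6 was at 0.11, FNTA at 0.38, GTF2B at 0.06, IFI35 at -0.09, JAK2 at 0.19, MAP3K8 at 0.21, PGGT1B at 0.48, RABGGTB at 0.15 and RCE1 at -0.11. With upper quartile factors, FNTA was at 0.06, MAP3K8 at 0.07 and ZFP36 at 0.04. With library size alone, IFNGR2 was at -0.10 and MX1 at -0.18. These 2 scalings shift all genes alike, and the median of all genes moved from -0.01 to 0.10 and to -0.20. Relative to that median, the genes named for these scalings kept their side. With at least 1 read in any sample MX1 was at -0.03. With single replicates left out, FNTA ranged from -0.22 to 0.10, MAP3K8 from -0.30 to 0.12, MX1 from -0.16 to 0.13, PGGT1B from -0.28 to 0.04 and ZFP36 from -0.18 to 0.05. Of single genes and details of lists, 1521 other values kept their direction and side of the threshold or stayed within the spread, 66 (mostly counts and medians of lists) moved further than that, 54 lost and 4 gained a call in the same direction. Except for the smaller number of genes tested under the stricter filter, the cause was not tested.

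Same-numbered VC and VHL-KO samples had correlations of 0.114, -0.0635 and 0.0658 between their deviations from the group means over 13545 genes. VC replicates 1 and 3 correlated best with their own number, and VC replicate 2 did not. These small values do not settle whether same-numbered samples share more than a number. With the replicate number as a block, 10284 genes were called in place of 10394, and VHL was at -0.33. Among the genes named, KRT19, at 0.96, was not called with the block. GBP5 had at most 5 reads in a sample, and the part of sequencing depth in this was not tested.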
